A study of Homo sapiens with 6 samples.

Results

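Expression of the SOX, T-box and GATA transcription factors was compared between CD109-KO and parental A431 cells. The genes were taken by their symbols on the array, as every probe set named SOX with a number, TBX with a number, GATA1 to GATA6, TBXT, TBR1 or EOMES. This gave 40 probe sets for 40 genes out of 21448 gene probe sets, namely 18 SOX genes, 16 T-box genes and 6 GATA genes. SOX6 was not analysed here. A431 is an established human squamous cell carcinoma line, and CD109 is a GPI-anchored surface protein that restrains TGF-β signalling. The CD109-KO group held 3 clones (26, 32 and 180), made by CRISPR/Cas9 with guide RNAs against exon 1 or exon 2 of CD109 and grown from single sorted CD109-negative cells. The parental group held 3 samples of unedited A431 cells (5, 2 and 6). Each sample was 1 Affymetrix Clariom S array of total RNA. Nothing in the labels marks the parental samples as separate cultures, and p-values here measure only the spread between these 6 samples. Effects of CD109 loss, of growing clones from single cells and of differences between the groups' arrays cannot be told apart in this design.

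SOX proteins bind and bend DNA through an HMG box, T-box proteins bind through the domain that names the family, and GATA proteins recognize a short motif through zinc fingers. All 3 families set cell identity in the embryo, where SOX genes act in neural progenitors, neural crest, cartilage and vessels, T-box genes in mesoderm, heart and limbs, and GATA genes in blood, heart and endoderm. In squamous epithelium, GATA3 is known for its part in epidermal differentiation, and SOX9 for marking hair follicle stem cells.

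All values are the deposited log2 signals. The background of an array was the 95th percentile of its 348 probe sets for olfactory receptors, which are smell receptors taken as unused in these cells. It was 5.51 to 5.71 in the CD109-KO arrays and 4.07 to 4.20 in the parental arrays, so that the same signal stood 1.45 lower against background in CD109-KO arrays on the mean. The median of the 23 antigenomic control probe sets, which match no human gene, was 1.21 higher in CD109-KO arrays on the log2 scale, the median of the olfactory receptors was 0.87 higher, and the median of 36 genes needed by every human cell was 1.97 lower. Between 9278 and 10269 gene probe sets exceeded the background in CD109-KO arrays and between 14098 and 14392 in parental arrays. Across probe sets, arrays of 1 group correlated at 0.960 to 0.978 and arrays of different groups at 0.557 to 0.632. CD109 itself had 3.64, 3.45 and 3.62 in the CD109-KO clones, all under background, and 7.57, 7.75 and 8.13 in the parental samples, at least 4.68-fold lower in CD109-KO (limma, adjusted p = 1.09e-07). Whether its probes lie inside the edited exons is not known.

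By limma on all gene probe sets, with a gene called changed at an adjusted p under 0.01 and a fold change of 2 or more, 29 of the 40 genes were higher in CD109-KO, 1 was lower and 10 were not called, but with the arrays centred on the antigenomic controls 1 was higher and 4 were lower, and centred on the olfactory receptors 8 were higher and 4 lower. The 4 genes were GATA2, GATA3, GATA6 and SOX15 in both cases. Of all gene probe sets, 36.8% were called higher and 24.8% lower. With the antigenomic centring these shares were 2.98% and 40.3%, and with the olfactory centring 8.80% and 35.2%. The median log2 difference, CD109-KO minus parental, was 1.35 over the 40 genes, 0.56 over all gene probe sets and 0.83 over the olfactory receptors, of which 137 of 348 were called higher. The 2 groups did not overlap for 37 of the 40 genes, against 79.5% of all gene probe sets. On these values 15 of 18 SOX genes, 11 of 16 T-box genes and 3 of 6 GATA genes were higher, and all of these calls except TBX15 ended with the antigenomic centring. Fewer cells with a transcript and less transcript per cell cannot be told apart in bulk RNA.

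Of the 29 genes called higher, 17 exceeded the background in all 3 CD109-KO arrays, where 18.9% of all gene probe sets did both. They were SOX4, SOX5, SOX7, SOX8, SOX10, SOX12, SOX13, SOX14, SOX21, TBX2, TBX3, TBX6, TBX10, TBX15, TBX21, GATA1 and GATA4. The other 12 had at least 1 CD109-KO array at or under background. In all, 18 of the 40 genes were above background in all 6 arrays and 11 in none, against 7883 and 5587 of the 21448 gene probe sets. TBX15 alone was under background in all parental arrays and above it in all CD109-KO arrays, as were 163 of all gene probe sets, and no gene of these families did the opposite, as 3615 of all gene probe sets did.

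**Figure D1:**
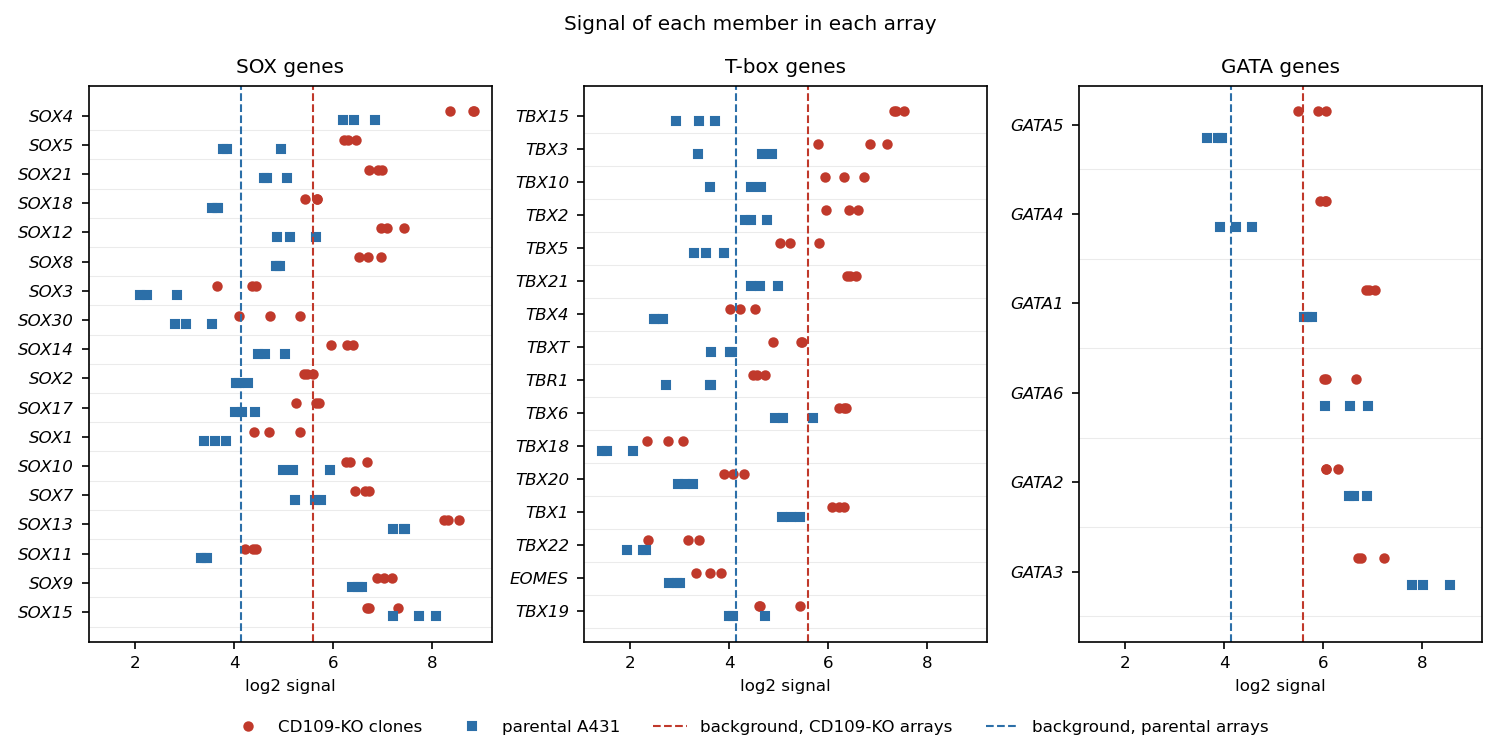
Log2 signal (horizontal axis) of the 40 genes in each of the 6 arrays, with the CD109-KO clones as circles above the parental samples as squares, 1 panel for each family, and dashed lines at the mean background of each group of arrays. TBX15 stands at 7.33 to 7.52 in the clones and at 2.92 to 3.72 in the parental samples.

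Distance from the array's own background gave another order. A gene was farther above, or less far under, the background in CD109-KO than in parental arrays for 18 of the 40 genes, against 22.2% of all gene probe sets. SOX4 was the farthest above background of the 40 genes in CD109-KO, at 3.08 against 2.35 in parental arrays. GATA3 was the farthest in parental arrays, at 1.30 in CD109-KO against 3.98 in parental arrays, followed by SOX15, at 1.32 in CD109-KO against 3.54 in parental arrays.

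**Figure D2:**
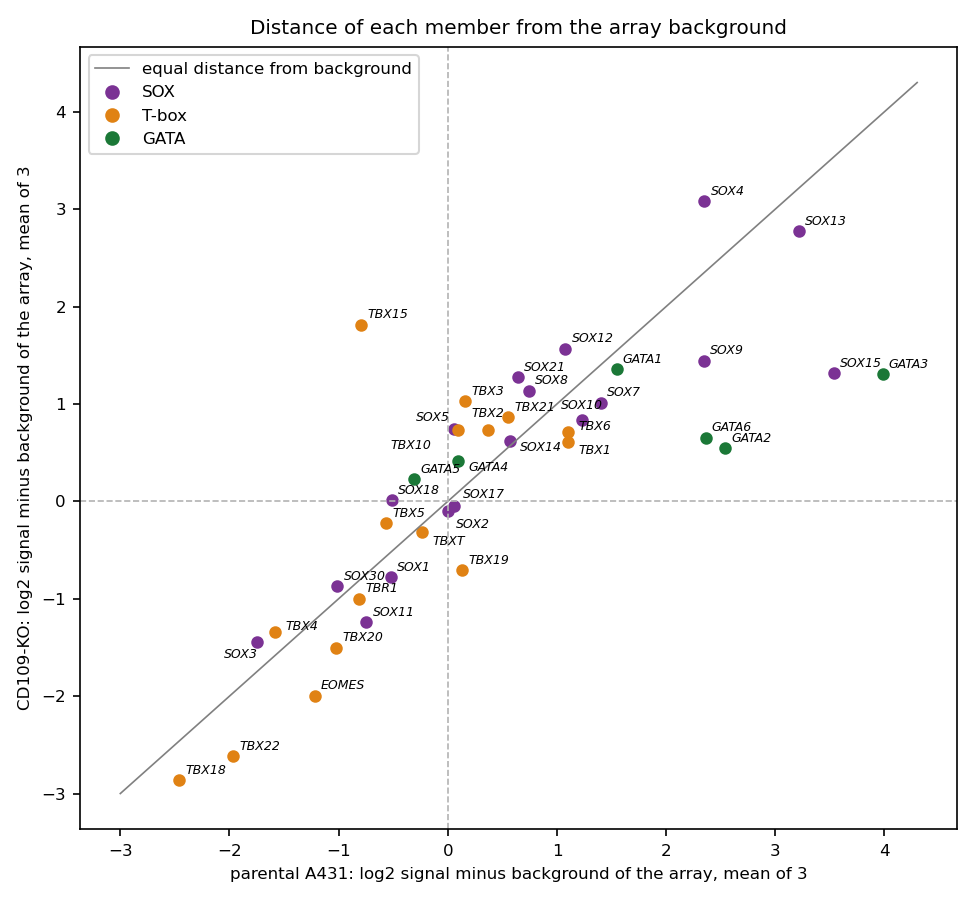
Mean log2 signal minus the background of the same array for each gene, in CD109-KO on the vertical axis and in parental A431 on the horizontal axis (n = 3 arrays each). TBX15 lies at 1.81 in CD109-KO and -0.79 in parental arrays, and GATA3, SOX15, GATA2 and GATA6 lie far under the line of equal distance.

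The sequence before a transcript start is printed for 4 genes. They are SOX4 and SOX5 as SOX genes called higher, TBX10 as a T-box gene called higher and GATA3 as the gene called lower. It was also read for SOX12 and SOX21, both called higher. Each window holds 250 bases before 1 transcript start in the RefSeq annotation of GRCh38.p14, read 5′ to 3′ along the gene's strand. The annotated span of SOX5 and of TBX10 begins farther upstream than the start used, so that 159 bases of the SOX5 window and all 250 of the TBX10 window lie inside the gene's span. Capitals mark matches, on either strand, to any of 4 motifs. The SOX core was searched as ACAAT. The letters GATAA stood for a GATA core. A T-box site was searched as GGTGTGA. The E-box bound by ZEB and SNAI factors was searched as CACCTG. No match to one motif overlapped a match to another in these windows. The windows lie at chr6:21593501-21593750 on the plus strand for SOX4, chr12:24562492-24562741 on the minus strand for SOX5, chr11:67639764-67640013 on the minus strand for TBX10 and chr10:8045083-8045332 on the plus strand for GATA3, the most upstream of its 6 annotated starts.
SOX4: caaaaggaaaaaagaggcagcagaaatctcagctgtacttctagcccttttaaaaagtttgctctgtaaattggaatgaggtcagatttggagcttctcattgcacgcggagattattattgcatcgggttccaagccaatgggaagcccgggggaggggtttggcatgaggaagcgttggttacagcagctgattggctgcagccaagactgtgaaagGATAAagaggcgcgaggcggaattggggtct
SOX5: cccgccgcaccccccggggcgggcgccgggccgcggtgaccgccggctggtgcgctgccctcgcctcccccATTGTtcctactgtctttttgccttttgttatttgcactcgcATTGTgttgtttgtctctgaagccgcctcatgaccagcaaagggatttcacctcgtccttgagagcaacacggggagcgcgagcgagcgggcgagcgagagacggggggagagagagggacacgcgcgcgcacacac
TBX10: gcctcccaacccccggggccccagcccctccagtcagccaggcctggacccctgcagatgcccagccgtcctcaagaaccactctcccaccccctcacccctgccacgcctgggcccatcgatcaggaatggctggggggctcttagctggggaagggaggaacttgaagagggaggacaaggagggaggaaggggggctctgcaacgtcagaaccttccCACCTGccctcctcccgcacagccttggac
GATA3: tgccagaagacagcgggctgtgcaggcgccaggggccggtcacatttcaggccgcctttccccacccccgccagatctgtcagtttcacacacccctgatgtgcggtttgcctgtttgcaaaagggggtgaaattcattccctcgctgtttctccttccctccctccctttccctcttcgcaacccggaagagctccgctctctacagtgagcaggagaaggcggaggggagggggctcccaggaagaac
The SOX4 window held 1 GATA core and the SOX5 window 2 SOX cores read on the opposite strand. The TBX10 window held 1 E-box and the GATA3 window none of these letters. The SOX12 and SOX21 windows, not printed here, held none either. A match is a description of the letters and not a binding site. Windows were found for 26 of the 40 genes, 36 windows in all. The SOX core was in 16.7% of these windows against 24.6% of 35116 windows of all genes, the GATA core in 16.7% against 20.4%, the T-box site in 2.78% against 2.76%, and the E-box in 19.4% against 17.5%.

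The T-box gene TBX15 showed the largest difference of the 40 genes. TBX15, which patterns the limb skeleton and the skin in mice, lies at chr1:118883047-118989510 (GRCh38.p14). It had 7.33, 7.52 and 7.36 in the CD109-KO clones and 3.39, 2.92 and 3.72 in the parental samples. The clones lay within 0.19 of each other and far from the parental values, which were all under background. The difference was 4.06 ± 0.25 (SE, limma, adjusted p = 2.08e-07), and because the parental values only set a bound it is given as at least 9.61-fold higher. It was called higher under every setting run, including the antigenomic centring at 2.85.

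Among the other genes of the TBX1 group, TBX10, which causes cleft lip in mice when expressed out of place, had 5.93, 6.72 and 6.32 in the CD109-KO clones and 4.64, 3.60 and 4.44 in the parental samples. The groups did not overlap, 1 parental value was under background, and the difference of 2.09 ± 0.31 (SE) had an adjusted p of 9.71e-05 by limma. TBX1, a factor of the pharyngeal arches and outflow tract, had 6.31, 6.07 and 6.22 in CD109-KO and 5.06, 5.25 and 5.42 in parental samples. Its difference of 0.96 missed the fold threshold (95% interval 0.48 to 1.44), and it was called without clone 32 (1.02) or without parental sample 6 (1.04). TBX18, which forms epicardium and the sinus node, lay under background in all 6 arrays. It was called higher at 1.05, and the call ended under repeated quantile normalization (0.66), without clone 32 (0.88), without clone 180 (1.03), without parental sample 5 (0.98) and without parental sample 6 (0.93). TBX20 of the heart (difference 0.97) and TBX22 of the palate (0.80) were under background in all 6 arrays and not called. TBX20 was called without clone 32 (1.06) or without parental sample 5 (1.04), and TBX22 without clone 26 (1.11).

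The TBX2 group, whose genes order limb, heart and mammary development, was called higher for 4 of 4 genes and kept its direction under each scaling, though none of the 4 calls held with the antigenomic centring. TBX3, a repressor that blocks senescence and whose loss causes ulnar-mammary syndrome, had 5.80, 6.85 and 7.19 in the CD109-KO clones and 3.37, 4.86 and 4.66 in the parental samples. The groups did not overlap, but the spread was the widest of the 40 genes, with an SD of 0.73 in CD109-KO and 0.81 in parental samples, and clone 26 and parental sample 5 lay low in their groups. The difference was 2.32 ± 0.43 (SE, limma, adjusted p = 0.000451), and the methods' own test gave an adjusted p of 0.0329. TBX2, also a repressor, had 5.96, 6.41 and 6.61 in CD109-KO and 4.76, 4.33 and 4.44 in parental samples, a difference of 1.82 ± 0.25 (SE, limma, adjusted p = 5.39e-05). All 6 of its values were above background and the groups stood well apart. TBX4 of the hindlimb starts 43.0 kb beyond the end of TBX2 on chromosome 17 and had 4.52, 4.01 and 4.22 in CD109-KO and 2.48, 2.52 and 2.67 in parental samples, all under background. TBX5, the forelimb and heart factor mutated in Holt-Oram syndrome, lies 262 kb from TBX3 on chromosome 12 and was above background in 1 CD109-KO array and no parental array (difference 1.79). The pair on chromosome 17 thus held 1 gene above background in all arrays and 1 gene under it in all arrays.

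Among the T-box genes of immune cells and early embryo, TBX21, known as T-bet and the factor of Th1 lymphocytes, had 6.37, 6.56 and 6.43 in CD109-KO and 4.99, 4.63 and 4.44 in parental samples. All 6 values were above background, the groups did not overlap, and the difference was 1.77 ± 0.23 (SE, limma, adjusted p = 3.80e-05). TBX6, which makes paraxial mesoderm, had 6.31, 6.22 and 6.36 in CD109-KO and 5.09, 5.70 and 4.93 in parental samples. Its difference of 1.06 ± 0.25 (SE, limma, adjusted p = 0.00237) turned to -0.15 with the antigenomic centring, and the call ended without clone 180 (1.03), without parental sample 5 (0.98) and without parental sample 6 (0.90). TBXT, or Brachyury, the factor of primitive streak and notochord, was called higher at 1.37 but lay under background in all 6 arrays, and the call ended under repeated quantile normalization (0.997). TBR1 of cortical neurons (1.26) was also called and under background throughout, and its call ended under repeated quantile normalization (0.75) and without parental sample 5 (0.97). EOMES, a relative of TBX21 in lymphocytes and early endoderm (0.68), and TBX19 of the pituitary (0.62) were not called. TBX19 was the only T-box gene whose groups overlapped.

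The SOXC genes SOX4 and SOX12, which act in progenitor cells and in many carcinomas, were called higher in CD109-KO cells, and SOX11 of the same group was not called, with its sign turned (-0.25) by the antigenomic centring. SOX4 (chr6:21593751-21598619) had 8.83, 8.36 and 8.81 in the CD109-KO clones and 6.20, 6.84 and 6.42 in the parental samples. The difference was 2.18 ± 0.25 (SE, limma, adjusted p = 1.64e-05), with a gap between the groups larger than the range inside either. With the antigenomic centring it was 0.98, just under the fold threshold. SOX12 had 7.42, 6.96 and 7.09 in CD109-KO and 4.87, 5.65 and 5.12 in parental samples, a difference of 1.94 ± 0.26 (SE, limma, adjusted p = 4.72e-05). Both genes were above background in every array. SOX11, a factor of immature neurons, lay under background in all 6 arrays at a difference of 0.96, and it was called without clone 26 (1.02).

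The SOXB2 genes SOX14 and SOX21, repressors that oppose SOX2 in neural progenitors, were both called higher and kept their direction under each scaling. Neither call held with the antigenomic centring (SOX21 0.88, SOX14 0.30), and with the olfactory centring that of SOX14 also ended (0.64). SOX21 had 6.98, 6.90 and 6.72 in CD109-KO and 4.61, 4.67 and 5.06 in parental samples, a difference of 2.09 ± 0.23 (SE, limma, adjusted p = 1.11e-05). SOX14 had 5.96, 6.28 and 6.40 in CD109-KO and 4.62, 5.03 and 4.47 in parental samples, a difference of 1.51 ± 0.24 (SE, limma, adjusted p = 0.000167). All values of both genes were above background. The SOXB1 activators SOX1 (1.20), SOX2 (1.35) and SOX3 (1.76), which keep cells in a progenitor state, were called higher too, yet no CD109-KO array exceeded the background for any of them, and SOX1 turned to -0.011 with the antigenomic centring. SOX2, a known oncogene of squamous carcinoma, had 5.40, 5.47 and 5.58 in CD109-KO and 4.10, 4.03 and 4.29 in parental samples, of which 1 parental value exceeded its background. The call of SOX1 ended under repeated quantile normalization (0.73), without clone 26 (0.94) or without parental sample 5 (1.08).

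The SOXD genes work without an activation domain of their own and assist other SOX factors, SOX5 next to SOX9 in cartilage. SOX5 (chr12:23529504-24562650) had 6.46, 6.22 and 6.30 in the CD109-KO clones and 3.86, 4.95 and 3.76 in the parental samples. The clones agreed closely, and parental sample 2 alone exceeded the background in its group. The difference was 2.14 ± 0.31 (SE, limma, adjusted p = 8.34e-05). SOX13 had 8.23, 8.54 and 8.31 in CD109-KO and 7.42, 7.44 and 7.20 in parental samples, the highest parental level of any gene called higher. Its difference of 1.01 ± 0.22 (SE, limma, adjusted p = 0.00130) turned to -0.20 with the antigenomic centring and was not called without clone 32 (0.92) or without parental sample 6 (0.93).

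Of the SOXE genes, which build neural crest, glia and cartilage, SOX8 and SOX10 were called higher and SOX9 was not, and the antigenomic centring turned SOX10 to -0.14 and SOX9 to -0.66. SOX8 had 6.70, 6.96 and 6.52 in CD109-KO and 4.84, 4.92 and 4.87 in parental samples, a difference of 1.85 ± 0.22 (SE, limma, adjusted p = 2.05e-05). SOX10, which drives melanocyte and Schwann cell fate, had 6.34, 6.26 and 6.68 in CD109-KO and 4.99, 5.93 and 5.18 in parental samples. Parental sample 2 came close to the clones, and the difference of 1.06 ± 0.28 (SE, limma, adjusted p = 0.00457) was not called without clone 26 (1.11, adjusted p = 0.0116 by limma), without clone 180 (0.93), without parental sample 5 (0.87) or without parental sample 6 (0.97). SOX9, the factor of chondrocytes and hair follicle stem cells, had 7.19, 7.03 and 6.88 in CD109-KO and 6.49, 6.38 and 6.58 in parental samples, all above background. The groups did not overlap, but the difference of 0.55 (95% interval 0.078 to 1.02) did not reach the fold threshold. SOX9 stood 1.44 above background in CD109-KO and 2.35 in parental arrays.

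The SOXF genes SOX7, SOX17 and SOX18, which act in endothelium and, for SOX17, in endoderm, were all called higher, and the antigenomic centring turned SOX7 to -0.14. SOX7 had 6.72, 6.64 and 6.44 in CD109-KO and 5.75, 5.63 and 5.23 in parental samples, a difference of 1.06 ± 0.23 (SE, limma, adjusted p = 0.00139), and it was not called without parental sample 6 (0.91). SOX18 (1.97) exceeded the background in 2 of 3 CD109-KO arrays and no parental array, and SOX17 (1.35) in 2 arrays of each group. SOX30, a factor of maturing sperm, was under background in all 6 arrays at a difference of 1.59, and its call ended under repeated quantile normalization (1.12, adjusted p = 0.0102 by limma).

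SOX15, which is expressed in epithelium and takes part in muscle repair in mice, was the only SOX gene with a negative difference, which turned positive (1.20) when arrays were centred on the genes needed by every cell. It had 7.31, 6.72 and 6.69 in CD109-KO and 7.73, 7.21 and 8.08 in parental samples. Clone 26 lay above parental sample 2, so that the groups overlapped, and the difference of -0.77 (95% interval -1.39 to -0.15) was not called. SOX15 was called lower with the antigenomic centring (-1.98, adjusted p = 0.000231 by limma), with the olfactory centring (-1.64, adjusted p = 0.000453) and without parental sample 2 (-1.003).

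The GATA genes did not share a direction. GATA3 (chr10:8045333-8075198), the factor of Th2 cells, mammary luminal cells and epidermis, had 7.22, 6.76 and 6.69 in the CD109-KO clones and 8.01, 8.56 and 7.80 in the parental samples. It was above background in every array and was the only one of the 40 genes called lower, by a difference of -1.23 ± 0.27 (SE, limma, adjusted p = 0.00132). It was called lower with a larger difference under the antigenomic centring (-2.44, adjusted p = 4.61e-06 by limma) and the olfactory centring (-2.10, adjusted p = 2.05e-05). The call ended under repeated quantile normalization (-0.66) and the methods' own test (adjusted p = 0.0209), and the direction turned to 0.74 with centring on the genes needed by every cell. GATA2, the factor of blood stem cells, had 6.06, 6.05 and 6.29 in CD109-KO and 6.89, 6.52 and 6.61 in parental samples. Its groups did not overlap, but the difference of -0.54 (95% interval -1.02 to -0.055) was not called. GATA6 of heart and endoderm had 6.02, 6.05 and 6.66 in CD109-KO and 6.55, 6.04 and 6.91 in parental samples, with overlapping groups and a difference of -0.26 (95% interval -0.88 to 0.37). Both genes were called lower with the antigenomic centring (GATA2 -1.75, GATA6 -1.46) and the olfactory centring (GATA2 -1.41, GATA6 -1.13), and both turned to higher when arrays were centred on the genes needed by every cell (GATA2 1.43, GATA6 1.71).

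GATA1, the factor of red cells and platelets, had 6.86, 7.05 and 6.92 in CD109-KO and 5.67, 5.78 and 5.60 in parental samples. All values were above background and tightly grouped, and the difference was 1.26 ± 0.21 (SE, limma, adjusted p = 0.000220). The call of GATA1 ended with the antigenomic centring (0.053) and with the olfactory centring (0.39). It stood 1.36 above background in CD109-KO and 1.55 in parental arrays. GATA4, which acts in heart and endoderm, had 6.06, 6.03 and 5.93 in CD109-KO and 4.24, 4.55 and 3.91 in parental samples, of which parental sample 6 was under background. Its difference was 1.77 ± 0.23 (SE, limma, adjusted p = 4.28e-05). GATA5, its relative in heart and gut, was called higher at 1.99 and exceeded the background in 2 of 3 CD109-KO arrays and no parental array.

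**Figure D3:**
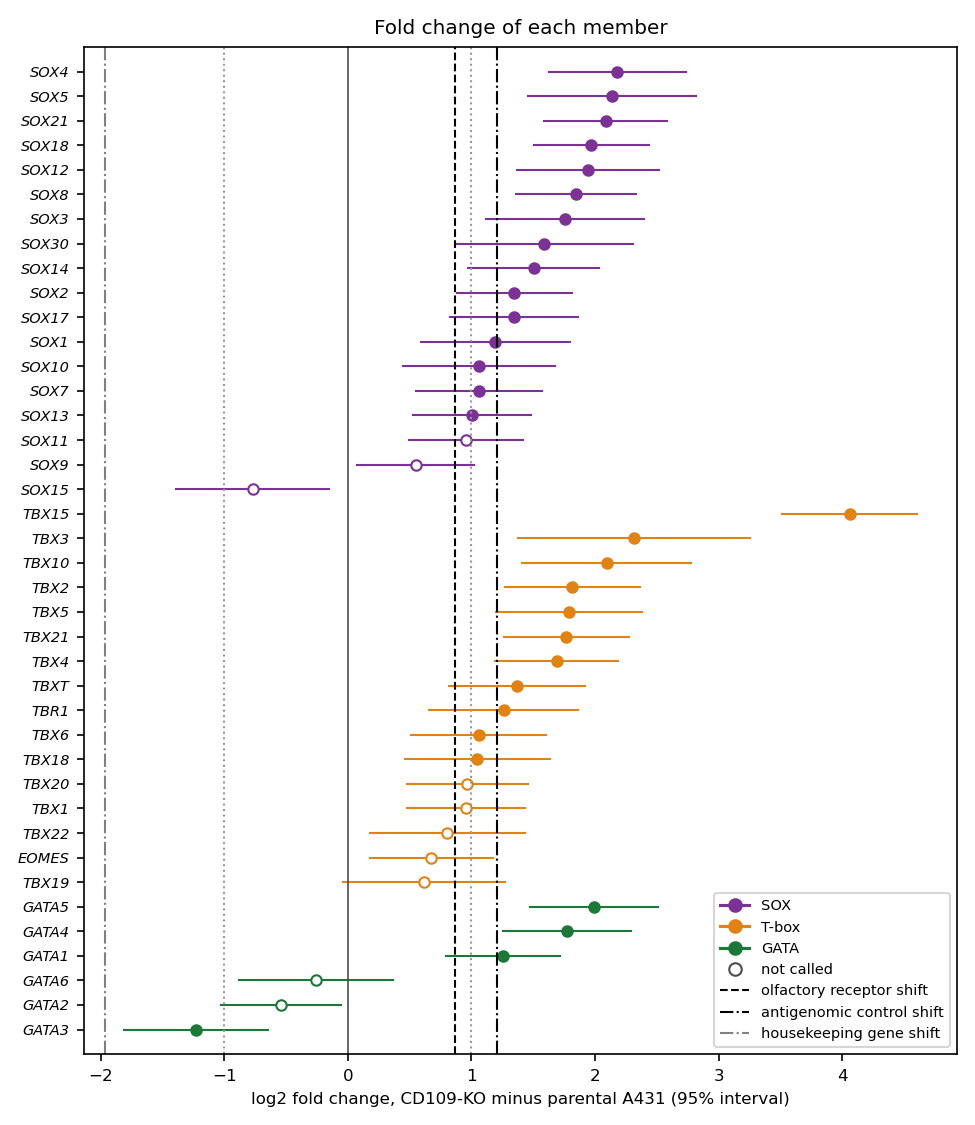
Log2 difference of each gene, CD109-KO minus parental A431, with its 95% interval from limma (open circles were not called, dotted lines mark a fold of 2). TBX15 is highest at 4.06 (a bound of at least 9.61-fold, since its parental values are under background) and GATA3 lowest at -1.23 (0.74 with centring on genes needed by every cell), and the vertical lines mark the shift between the groups of the olfactory receptors (0.87), the antigenomic controls (1.21) and the genes needed by every cell (-1.97).

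The 3 clones differed little from each other. The median SD over the 40 genes was 0.23 in CD109-KO and 0.28 in parental samples. Over all gene probe sets it was 0.24 in CD109-KO and 0.30 in parental samples. TBX3 and SOX30 had the widest spread in the clones, with an SD of 0.73 for TBX3 and 0.62 for SOX30.

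Partner and target genes of the factors were read beside them, on the same values, where 36.8% of all gene probe sets were higher and 18.9% were higher and above background in all CD109-KO arrays. With the antigenomic centring 2.98% of all gene probe sets were higher and 40.3% lower. Only COL2A1, COL9A2, COL11A2, DLL3, FGF10, HAND2 and CDX2 of the 11 lists were still called higher there, and positive differences under 1.21 turned their sign. The genes lower as deposited (ERBB3, DLL1, NDRG1, CDKN1A, CDH1, LDB1 and FOXA1) were still lower. MAP2, CDH5 and PITX1, not called as deposited, were called lower. Of 11 cartilage genes controlled by SOX9, 9 were higher, 0 were lower and 2 were not called, and 6 of the 9 were above background in all CD109-KO arrays. COL2A1, the main collagen of cartilage, had 9.33, 9.17 and 9.23 in CD109-KO and 5.99, 6.47 and 6.13 in parental samples, a difference of 3.04. COL9A2 (2.43), COL11A2 (2.33, at least 3.60-fold higher) and COL9A3 (1.95) also rose, while ACAN, COL11A1, HAPLN1 and MATN3 were under background in all 6 arrays, although ACAN, COL11A1 and MATN3 are among the 9 called higher. The median difference over the list was 1.62, against 0.56 over all gene probe sets. SOX9 itself was not called.

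Of 6 measured neural crest and glia genes under SOX10, 3 were higher, 1 was lower and 2 were not called. RET (2.14), EDNRB (1.83) and PMEL (1.55), which serve enteric neurons and pigment cells, rose, and ERBB3, a receptor of glial growth signals that epithelium also uses, fell at least 5.41-fold. Of 9 measured SOXB1 partners and neural progenitor genes, 6 were higher and 3 not called. LIN28A (2.09), MSI1 (1.86) and SALL4 (1.82) were above background in the clones. MSI1 and SALL4 were also above it in all parental arrays, and LIN28A in 1 of them. Of 8 endothelial genes under SOXF factors, 5 were higher and 3 not called, led by FLT4 (2.03) and CLDN5 (1.65). Of 4 measured neuronal genes under SOXC factors, 2 were higher and 2 not called, and none of the 2 was above background in all clones. The list medians were 1.27 for the SOX10 genes, 1.14 for the SOXB1 genes, 1.31 for the SOXF genes and 1.16 for the SOXC genes.

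Of 12 early mesoderm genes tied to TBXT and TBX6, 10 were higher, 1 was lower and 1 was not called. DLL3 (2.77), MESP1 (2.08) and LEF1 (2.08), which pattern the somites and the primitive streak, rose, and the Notch ligand DLL1 fell at least 2.96-fold. Of 12 measured heart and limb genes tied to TBX2 to TBX5 and TBX20, 9 were higher and 3 not called. FGF10, the limb bud growth factor that TBX4 and TBX5 switch on, had 11.2, 11.4 and 11.4 in CD109-KO and 3.75, 2.97 and 2.83 in parental samples, at least 148-fold higher, while TBX4 and TBX5 lay under background in 3 and 2 of the 3 CD109-KO arrays. HAND2 (2.59), NKX2-5 (2.05) and NPPB (1.53) also rose. The medians were 1.63 for the mesoderm genes and 1.58 for the heart and limb genes.

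Of 5 measured genes that TBX2 and TBX3 repress, 3 were lower and 2 were higher. CDH1, or E-cadherin, the adhesion molecule of epithelium, had 4.51, 3.59 and 3.93 in CD109-KO and 8.67, 8.92 and 9.42 in parental samples. All 3 CD109-KO values were under background, so that it was at least 10.7-fold lower. CDKN1A, an inhibitor of the cell cycle, fell at least 6.98-fold, NDRG1 differed by -2.41, and CDKN2A, another inhibitor, rose by 2.15. All 5 lymphocyte genes under TBX21 and EOMES were higher. CXCR3 (1.70), GZMB (1.60) and PRF1 (1.39) were above background in every array of both groups, and IFNG was under it in all arrays.

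Of 14 partners and targets of GATA1 to GATA3, 12 were higher, 1 was lower and 1 was not called. EPOR (2.14), LYL1 (2.12) and GFI1B (1.86) of red cell and blood progenitors rose, and LDB1, which joins GATA factors into complexes, had 7.19, 6.94 and 7.35 in CD109-KO and 10.1, 9.59 and 9.67 in parental samples, a difference of -2.63. Of 10 measured partners and targets of GATA4 to GATA6, 8 were higher, 1 was lower and 1 was not called. CDX2 (2.28), TNNI3 (2.03) and TTR (1.79, at least 3.10-fold higher) rose, and FOXA1, a pioneer factor of epithelium and endoderm, differed by -2.49. The medians were 1.61 for the first list and 1.62 for the second.

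**Figure D4:**
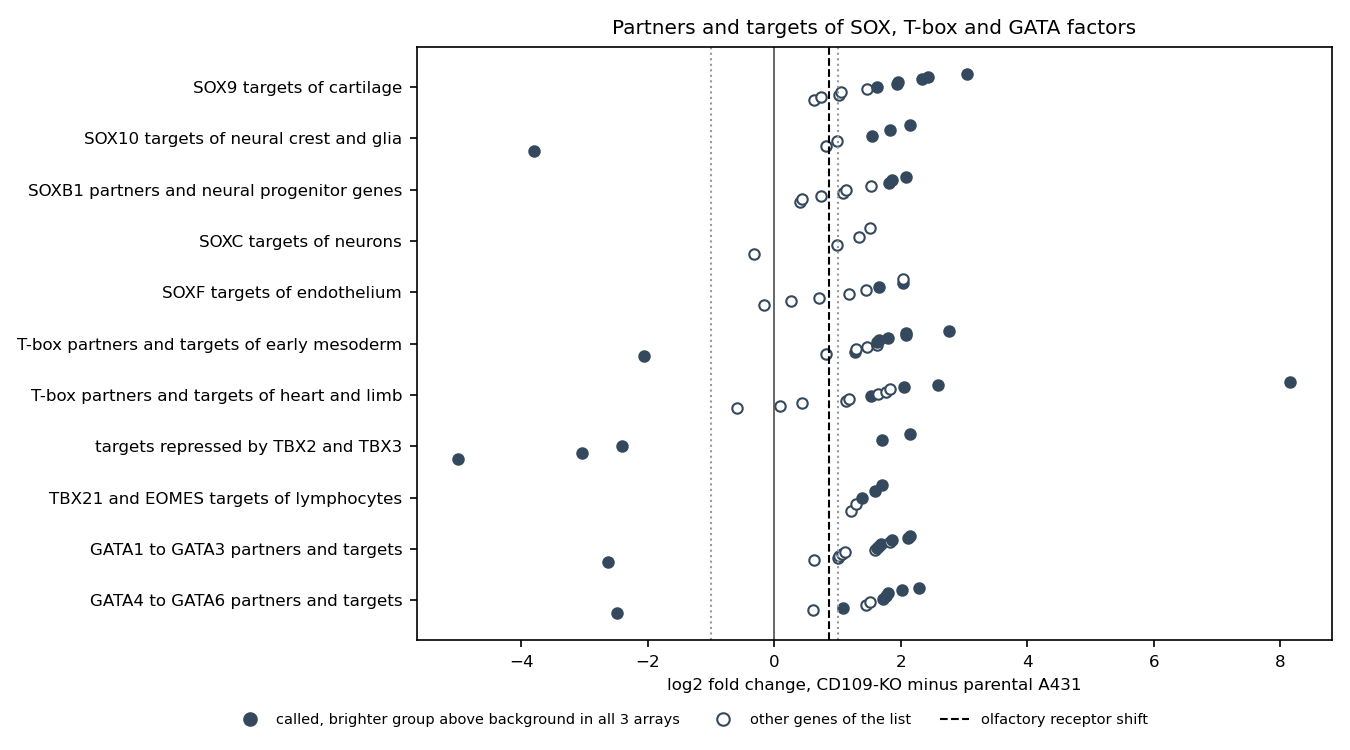
Log2 difference, CD109-KO minus parental A431, of each measured gene in the 11 lists of partners and targets (filled circles were called and above background in all 3 arrays of the brighter group, the dashed line marks the olfactory receptor shift of 0.87, dotted lines a fold of 2). The end points FGF10 (8.16) and CDH1 (-4.99) are drawn against a group under background and stand for bounds of at least 148-fold higher and at least 10.7-fold lower.

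Markers of other cell types were read on the same values, with the same shares of 36.8% higher and 24.8% lower over all gene probe sets. All 9 measured markers of squamous epithelium were lower, with a mean level of 6.20 to 6.45 in CD109-KO arrays and 10.1 to 10.4 in parental arrays. Among them EGFR had 5.45, 5.48 and 6.14 in the CD109-KO clones and 11.3, 11.6 and 11.3 in the parental samples. Beside the SOXF genes, 5 of 7 endothelial markers were higher (5.25 to 5.34 in CD109-KO and 3.98 to 4.13 in parental arrays), but KDR, PECAM1 and TEK were under background throughout. Beside SOX10, 3 of 5 measured neural crest markers were higher (5.45 to 5.61 in CD109-KO and 3.99 to 4.26 in parental arrays), with S100B and TYR under background. Chondrocyte markers were higher for 5 of 7 genes (5.28 to 5.49 in CD109-KO and 3.60 to 4.02 in parental arrays). Of these markers ACAN, HAPLN1 and MATN3 were under background in all 6 arrays, though ACAN and MATN3 were called higher. Cardiac markers were higher for 6 of 6 (6.24 to 6.39 in CD109-KO and 4.31 to 4.72 in parental arrays, MYH6 under background). Endoderm markers were higher for 4 of 5 (4.91 to 5.09 in CD109-KO and 3.55 to 3.74 in parental arrays, AFP and CXCR4 under background). Blood cell markers were higher for 5 of 7 genes and lower for 1 (5.49 to 5.56 in CD109-KO and 4.68 to 5.12 in parental arrays), with CD34 and PTPRC under background in all 6 arrays. Fibroblast markers were higher for 7 of 9 genes and lower for 1 (6.58 to 6.76 in CD109-KO and 4.27 to 4.55 in parental arrays), with FAP and PDGFRA under background. Under the antigenomic centring 2.98% of all gene probe sets were higher and 40.3% lower. The markers still called higher were COL1A1, COL1A2, VIM, THY1 and PDGFRB of fibroblasts, COL2A1 and COL11A2 of chondrocytes and MYH7 of cardiac muscle. All 9 squamous markers were lower. So were LUM of fibroblasts and CD68 of blood cells, both also lower as deposited, and CDH5 of endothelium, not called as deposited. The part of these differences, and of the background of the arrays, in the results above was not tested.

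**Figure D5:**
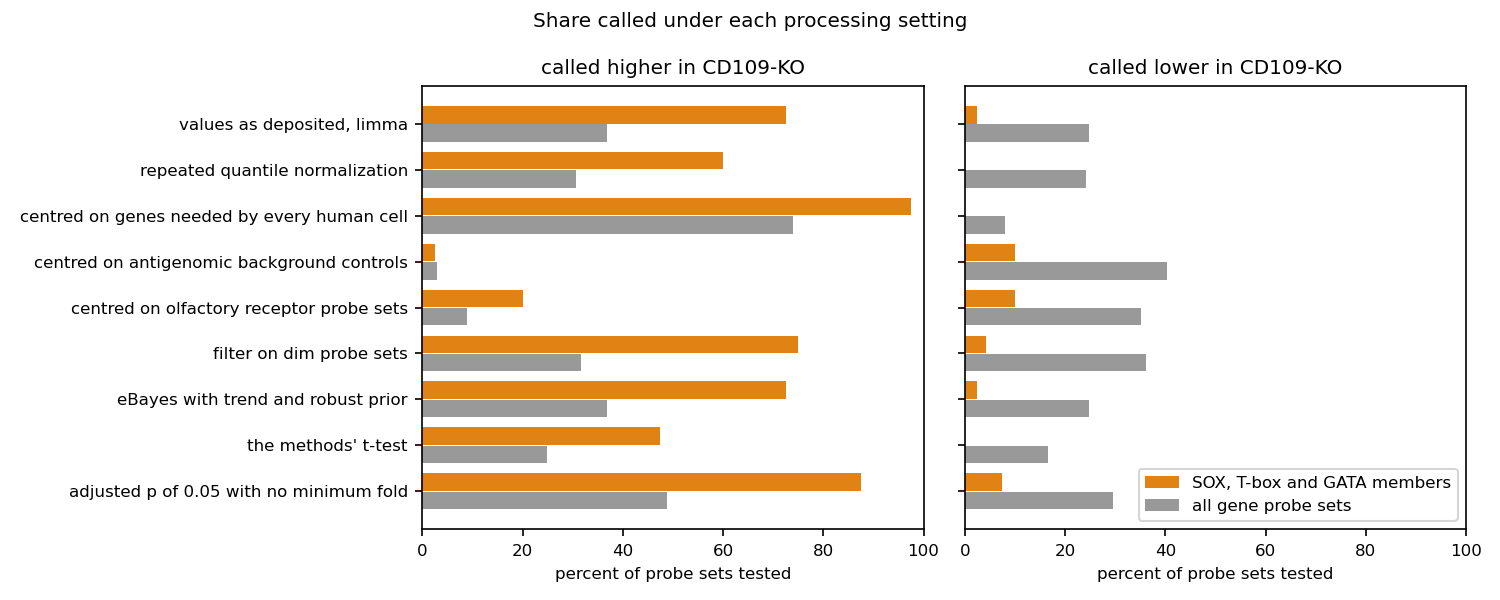
Percent of probe sets called higher (left) and lower (right) in CD109-KO under each processing setting, for the SOX, T-box and GATA genes (upper bar) and all gene probe sets (lower bar). On the values as deposited 72.5% of the genes were higher, against 36.8% of all gene probe sets, and with centring on the antigenomic controls 1 of the 40 genes was, against 2.98% of all.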

How the data were processed

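Clariom S arrays, 6 in all, measured total RNA of the CD109-KO clones and of unedited A431 cells, 3 each. The deposited values are log2 signals, which the authors background-corrected and normalized in the Affymetrix consoles (Transcriptome Analysis Console and hg38 appear in the submitters' processing notes), by an algorithm not given in the sources used here. Of 24351 probe sets, 2903 controls were left out of the test. Probe sets were named from the platform annotation, 17709 of 21448 with 1 symbol and 3739 unnamed here, and all 40 genes were found in RefSeq (GRCh38.p14) by Entrez ID.

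CD109-KO minus parental was fitted in limma 3.58.1 (R 4.3.3, lmFit and eBayes), with Benjamini-Hochberg adjustment over all gene probe sets, and called at an adjusted p under 0.01 and a fold of 2 or more. The pipeline was tested on simulated data with no general shift between the groups, so that test does not bear on the shifts described above. For an "at least" fold, each dim array was put at its background or its own value, whichever was higher, and the group means were compared. The number of arrays limits the precision.

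The rule for naming gave every array for genes called and above background in the brighter group, or above it in all 6 arrays, the rest by their difference, and up to 4 genes of each partner list. The values of SOX2 and TBX4 in each array were added after they were seen. The genes and lists were chosen with earlier results of these data known. Alternatives were repeated quantile normalization, centring on 3 reference sets, a filter on dim probe sets (above background in at least 3 of 6 arrays), a trended robust prior, a Student's t-test, an adjusted p of 0.05 with no minimum fold, and leaving out each array. The paper's methods name a Student's test for comparing groups in general, while its array genes were called in the Transcriptome Analysis Console. The partner and marker lists were also counted with the antigenomic centring, a count added after the data were seen.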

Additional observations from a re-analysis of the deposited data

Results flagged for a closer look

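The controls, which were left out of the test, differed between the groups. Above, the antigenomic ones served to centre the arrays. The 23 antigenomic controls, which match no human gene, had array medians that averaged 3.89 over the CD109-KO arrays and 2.69 over the parental ones, a difference of 1.21 on the log2 scale. The 4 hybridization controls, which are added to every sample before hybridization, had array medians that averaged 11.5 over the CD109-KO arrays and 10.6 over the parental ones, a difference of 0.90. Of the 40 SOX, T-box and GATA genes, 23 had a difference above that of the antigenomic controls and 17 did not. Of all gene probe sets, 69.3% had a difference no larger than that of SOX1 (1.20), and 71.3% no larger than that of GATA1 (1.26). The part of the controls in the results was not tested beyond the centring given below.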

How the results depend on the processing

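The trended robust prior gave the same calls for all 40 genes. The number of genes higher was 29 in the values as deposited and 24 after repeated quantile normalization. It was 39 with centring on genes needed by every cell, 8 on olfactory receptors and 1 on antigenomic controls. It was 18 of the 24 genes left by the filter on dim probe sets and 19 by the Student's t-test. At an adjusted p of 0.05 with no minimum fold it was 35, and with 1 array left out 25 to 29. The number lower, 1 as deposited, was 0 after quantile normalization, 0 with centring on genes needed by every cell, 0 by the t-test, 4 on antigenomic controls, 4 on olfactory receptors, 3 at an adjusted p of 0.05, and 1 to 2 with 1 array left out. Of all gene probe sets, 30.6% were higher and 24.1% lower after quantile normalization, and 24.9% and 16.5% by the t-test. The shares were 31.6% and 36.1% of those left by the filter, and 48.8% and 29.5% at an adjusted p of 0.05. Leaving out 1 array gave 33.7% to 37.9% higher and 22.9% to 25.7% lower. The number higher and above background, 17 as deposited, was 1 on antigenomic controls (TBX15), 6 on olfactory receptors (SOX4, SOX5, SOX12, SOX21, TBX10, TBX15), and 14 to 18 with 1 array left out. In this last count only the CD109-KO arrays that remained had to exceed the background. Over all gene probe sets the median difference moved by 1.97 with centring on genes needed by every cell, which called 74.0% higher and 8.02% lower, by -1.21 on antigenomic controls and by -0.87 on olfactory receptors. Signs turned with centring on genes needed by every cell for GATA2 (1.43), GATA3 (0.74), GATA6 (1.71) and SOX15 (1.20). On antigenomic controls they turned for SOX1 (-0.011), SOX7 (-0.14), SOX9 (-0.66), SOX10 (-0.14), SOX11 (-0.25), SOX13 (-0.20), EOMES (-0.53), TBX1 (-0.25), TBX6 (-0.15), TBX18 (-0.16), TBX19 (-0.59), TBX20 (-0.24) and TBX22 (-0.40), and on olfactory receptors for SOX9 (-0.32), EOMES (-0.19), TBX19 (-0.25) and TBX22 (-0.064). Repeated quantile normalization ended 6 calls (TBR1, SOX1, SOX30, TBXT, TBX18 and GATA3). The Student's t-test ended 11 calls, among them SOX5, SOX10, TBX3, TBX6, TBX10 and GATA3. Signal near background limits the 11 genes under it in all 6 arrays. No paired analysis was possible because the groups share no replicate numbers.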

Other observations

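The windows of 250 bases before transcript starts of the SOX, T-box and GATA genes had a median GC content of 62.6% and a median of 17 CpG dinucleotides (36 windows of 26 genes), against 58.0% and 11 over 35116 windows of 27305 genes.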
